A study of Mus musculus with 5 samples.

Results

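Epithelial cells of PyMT mouse mammary tumours with a high joint score for Scgb1b27, Scgb2b27, Pip, 2310057J18Rik and Tesc are described here. That they are a minority follows from the rule that chose them. A cell was counted as epithelial when the keratins Krt8 and Krt18 and the adhesion molecule Epcam together reached 15 unique molecular identifiers (UMIs, each a counted transcript molecule) per 10000 UMIs of the cell. The score was the mean, over the 5 genes, of the natural log of 1 plus the UMIs per 10000. Epithelial cells above the 90th percentile of their own library were taken, which gave 1097 of 10959 epithelial cells and of 15958 cells in all. They are called high-scoring cells here, and the remaining 9862 epithelial cells are called other epithelial cells. The 5 score genes and the 3 gate genes chose the cells, so their values are a description and carry no test.

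The study set 2 single-cell RNA-seq platforms side by side on tumours of mice that carry the polyoma middle T antigen (PyMT) in the mammary epithelium. All samples were digested tumours enriched for live cells. The labels used here leave out the strain, the age, the number of animals and the promoter of the transgene. Fresh digests were run as 2 samples with the 10x Genomics 3' v2 kit, which captures cells in droplets (fresh 10x 1 and fresh 10x 2). Another digest was kept overnight at 4 °C, which its title gives as 24 h, and was run on the same kit (stored 10x). Flow cytometry had shown its viability to be lower by 20% or more. The BD Rhapsody whole-transcriptome assay, which captures cells in microwells, was run on a fresh sample (BD 1) and on a sample whose title says fresh while its deposited data are named for 24 h (BD 2). BD 2 is therefore kept as a group of its own. Nothing says that the 5 libraries, the 2 fresh 10x samples among them, came from separate animals. All p-values therefore measure only the spread between these libraries, which may be technical. Values below are given in the order fresh 10x 1, fresh 10x 2, stored 10x, BD 1, BD 2 unless a sentence says otherwise.

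The libraries held 29166129, 30027178, 53381382, 59957945 and 49966022 UMIs. They contributed 140, 143, 297, 253 and 264 high-scoring cells, numbers that the percentile fixes. Libraries of 1 platform shared between 1 and 24 cell barcodes, and 0 of these belonged to high-scoring cells. High-scoring cells were deeper than the other epithelial cells in every library, with a median of 16093.5, 14479, 12858, 14880 and 13363.5 UMIs against 11944.5, 12737, 10925, 13471 and 10639.5. Main results were therefore repeated after every cell had been thinned to 2000 UMIs, called equal depth below. Cells under 2000 UMIs were left out. For tests, score bins and the Pip comparison the cells were chosen anew on thinned counts, which gave 133, 134, 263, 242 and 254 high-scoring cells. Shares of cells with a Car6, Spp1 or Scgb2b27 UMI kept the original choice of cells. The median share of mitochondrial UMIs in high-scoring cells was 7.2, 8.13, 7.50, 16.8 and 18.5%, higher on BD Rhapsody.

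Secretoglobins are small secreted proteins that form dimers. In rodents one branch of the family, the androgen-binding proteins, is made by salivary and lacrimal glands, and its dimers join an alpha subunit such as Scgb1b27 to a beta or gamma subunit such as Scgb2b27. Pip (prolactin-induced protein) is a secreted protein of salivary, lacrimal, sweat and mammary epithelium. The gene 2310057J18Rik, with the synonym Leg1, encodes a secreted protein, and Tesc (tescalcin) is a calcium-binding protein of the cytoplasm that acts on a sodium and proton exchanger.

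On the GRCm38 build, Scgb2b27 lies on chromosome 7 at 34011921 to 34013942 on the minus strand, and Scgb1b27 lies beside it at 34021483 to 34022881 on the plus strand. The pair is arranged head to head, with 7540 bases between the start sites. Pip is on chromosome 6 at 41847535 to 41852065, Tesc on chromosome 5 at 118027743 to 118061878 and 2310057J18Rik on chromosome 10 at 28972288 to 28986303. The 250 bases before the start annotated by RefSeq are shown for the head-to-head pair and for Pip. The sequences are from RefSeq for GRCm38.p6, 5′ to 3′ on the strand of each gene, and distances count from the RefSeq start. For Pip that start lies inside the gene as placed above, so the last bases of the Pip window are within the gene by those coordinates. Capitals mark matches to TTCNNNGAA (a STAT-type palindrome), to TGTTCT or its reverse complement AGAACA (a piece of the steroid receptor element), and to TATAAA or its reverse complement TTTATA.
Scgb1b27, chr7:34021231-34021480, plus strand: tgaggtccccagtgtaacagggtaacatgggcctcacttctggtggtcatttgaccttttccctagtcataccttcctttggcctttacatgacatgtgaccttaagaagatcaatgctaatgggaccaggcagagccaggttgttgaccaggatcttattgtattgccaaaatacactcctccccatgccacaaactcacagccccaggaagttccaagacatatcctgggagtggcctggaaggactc
Scgb2b27, chr7:34013943-34014192, minus strand: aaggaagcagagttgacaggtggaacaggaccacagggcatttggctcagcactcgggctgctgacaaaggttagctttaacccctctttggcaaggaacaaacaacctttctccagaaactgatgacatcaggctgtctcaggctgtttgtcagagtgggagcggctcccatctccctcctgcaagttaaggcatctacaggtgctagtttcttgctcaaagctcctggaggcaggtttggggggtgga
Pip, chr6:41847299-41847548, plus strand: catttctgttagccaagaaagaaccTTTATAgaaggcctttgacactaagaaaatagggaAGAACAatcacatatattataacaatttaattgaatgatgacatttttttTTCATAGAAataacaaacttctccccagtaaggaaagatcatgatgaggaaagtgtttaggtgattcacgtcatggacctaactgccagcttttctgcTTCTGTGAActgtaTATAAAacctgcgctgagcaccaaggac
The Pip sequence held TTCATAGAA and TTCTGTGAA, 1 AGAACA, and TATAAA from 28 to 23 bases before the start besides a TTTATA farther upstream. The sequences of the 2 secretoglobin genes held none of the 3 motifs, which says only that these letters are not in this window. Over 32851 promoters of the same length, with both strands searched, 7.02% held TTCNNNGAA, 16.1% held TGTTCT and 12.4% held TATAAA.

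Scgb2b27 was the broad member of the score. Its level in high-scoring cells was 45.3, 66.6, 34.4, 62.9 and 47.4 UMIs per 10000, against 2.28, 3.53, 1.11, 1.69 and 1.55 in the other epithelial cells, and 96.0 to 100% of high-scoring cells had a UMI of it. The level of 2310057J18Rik was 46.8, 40.9, 17.1, 13.2 and 14.6 per 10000, against 1.58, 1.12, 0.316, 0.198 and 0.225, and 87.9, 87.4, 60.9, 58.1 and 58.0% of high-scoring cells had a UMI. Both values of this gene were higher in the fresh 10x samples than in the other 3 libraries. Tesc was at 2.65, 2.10, 1.63, 1.28 and 1.31 per 10000, with a UMI in 61.4 to 83.2% of high-scoring cells.

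Scgb1b27 and Pip were concentrated in few cells. Scgb1b27 reached 3.6, 11.2, 12.7, 20.5 and 5.19 UMIs per 10000 of the high-scoring cells, but only 17.4 to 29.4% of these cells had a UMI, and the 5 cells with most Scgb1b27 held 75.9, 80.3, 87.0, 82.7 and 67.7% of its UMIs. In stored 10x a single cell with 4708 UMIs held 64.4% of them. Pip reached 2.02, 3.19, 1.5, 3.11 and 5.46 per 10000. Only 16.4, 11.2, 6.06, 8.30 and 6.82% of high-scoring cells had a Pip UMI, and the top 5 cells held 71.2, 87.3, 96.7, 93.8 and 97.7% of its UMIs. The corresponding share for Scgb2b27 was 21.9 to 29.4%. The name "Scgb and Pip secretory" therefore describes a small share of the high-scoring cells, most of which were led by Scgb2b27 without Pip.

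**Figure D1:**
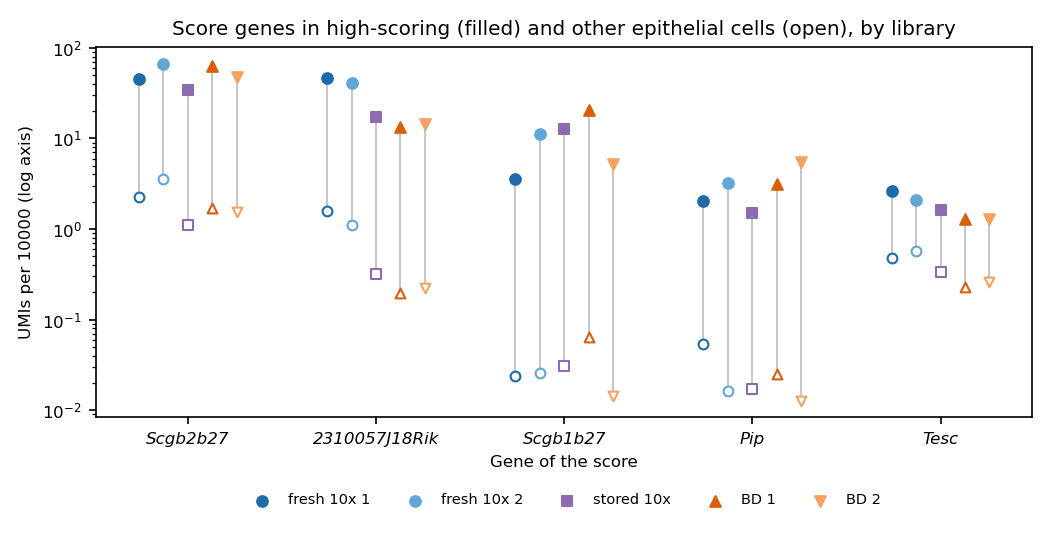
Level of each score gene by library, in UMIs per 10000 on a log axis, for high-scoring cells (filled) and other epithelial cells (open), joined by a line. Filled symbols lie above open ones because these genes chose the cells, and 2310057J18Rik is higher in the fresh 10x samples than in the other 3 libraries in both groups.

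By the gene with the largest contribution, 779 high-scoring cells (71.0%) were led by Scgb2b27 and 269 (24.5%) by 2310057J18Rik. Scgb1b27 led 26 cells, Tesc 16 and Pip 7. The share led by 2310057J18Rik was 54.3, 35.0, 20.2, 15.4 and 16.7% by library. Of the 1097 cells, 104 had UMIs of 1 score gene, 404 of 2, 397 of 3, 152 of 4 and 40 of all 5. Scgb1b27 and Pip were found together in 51 cells, and Pip without Scgb1b27 in 45.

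Correlations over high-scoring cells are descriptive, since cells of a library share its depth and the score selected on the genes. Scgb1b27 and Pip had positive coefficients in each library, from 0.243 to 0.476. Scgb2b27 and 2310057J18Rik had coefficients from -0.269 to -0.131 within high-scoring cells and from 0.287 to 0.423 over all epithelial cells. Each score gene was also described in cells chosen on the other 4 genes alone. The 5 genes were put in 1 score with earlier results of these data known, so these values lend no support to the grouping. Few chosen cells carried the 2 rarer genes. By library 23.6, 25.2, 18.2, 21.7 and 16.7% had a Scgb1b27 UMI, against 1.91, 4.51, 4.26, 10.2 and 1.94% of the rest. For Pip the shares were 12.9, 9.79, 6.06, 7.11 and 5.68%, against 1.51, 1.17, 1.08, 2.95 and 1.05%. Chosen that way, the top 10% of epithelial cells exceeded the rest by a median over libraries of 8.18 on the log2 scale for Scgb1b27 (6.82 to 8.36) and 6.53 for Pip (3.58 to 8.55). The median was 4.20 for 2310057J18Rik (3.24 to 4.55), 3.07 for Scgb2b27 (2.85 to 3.59) and 1.63 for Tesc (1.49 to 2.08).

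The score had a long upper tail. It was 0 in 31.4, 26.3, 37.8, 30.9 and 42.4% of epithelial cells, and the 90th percentile lay at 0.994, 1.08, 0.687, 0.740 and 0.706. The 10 cells just inside scored 0.996 to 1.06 in fresh 10x 1 and 0.688 to 0.708 in stored 10x, and the 10 just outside 0.977 to 0.993 and 0.681 to 0.687. Between 51 and 150 cells per library lay within 0.1 of the percentile. Scores over 2 were found in 32, 29, 12, 14 and 18 epithelial cells. The high-scoring cells are thus a range of a score, and whether they form a separate cell type was not tested.

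**Figure D2:**
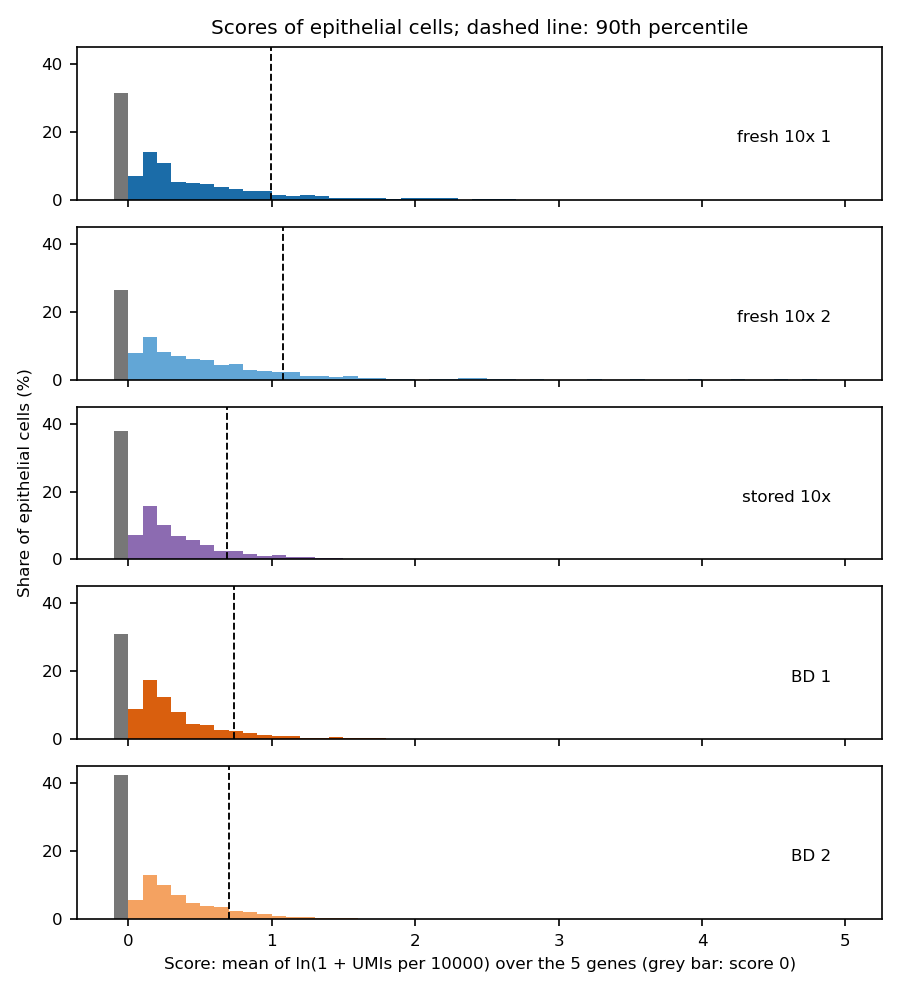
Distribution of the 5-gene score over epithelial cells of each library, as the percent of cells in bins of 0.1, with a grey bar for score 0 and a dashed line at the 90th percentile. The scores show no gap at the percentile, which lies between 0.687 and 1.08.

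Free RNA in the suspension gives UMIs to cells that do not express a gene, so the broad gene Scgb2b27 was set against macrophages, gated on the complement genes C1qa, C1qb and C1qc. At equal depth, 27.0, 34.4, 24.1, 27.3 and 25.3% of epithelial cells had a Scgb2b27 UMI. In macrophage-gated cells the share was 6.52, 4.23, 6.36, 6.98 and 1.80%, from 46, 71, 110, 172 and 167 cells. The exact 95% intervals, which cover counting error only, did not overlap in any library, with 24.6 to 29.4% against 1.37 to 17.9% in fresh 10x 1. Without thinning the shares were 48.7 to 61.0% of epithelial cells, at medians of 10870.5 to 13673 UMIs, and 6.41 to 23.8% of macrophage-gated cells, at medians of 5038 to 11934.5 UMIs. At equal depth 1.79, 4.55, 3.57, 10.6 and 3.31% of cells gated on Cd3d, Cd3e and Cd3g (T cells) had a Scgb2b27 UMI. For cells gated on Col1a1, Col1a2 and Col3a1 (fibroblasts) it was 1.30, 1.95, 4.26, 5.31 and 2.11%. Unthinned T-gated cells were at 0.0352, 0.202, 0.365, 1.63 and 0.222 UMIs per 10000, in BD 1 near the 1.69 of other epithelial cells.

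Transcripts that mark other cell classes were summed in high-scoring and other epithelial cells. The macrophage markers (7 of 7 measured) summed to 0.0801 to 0.161 UMIs per 10000 in high-scoring cells and to 0.155 to 0.908 in other epithelial cells. The T cell markers summed to 0.0100 to 0.0346 against 0.0280 to 0.101, the endothelial markers to 0.0296 to 0.144 against 0.0350 to 0.247, and the mural markers to 0.220 to 0.486 against 0.302 to 0.507. The neutrophil markers summed to 0.0310 to 0.366 against 0.411 to 1.32, the plasma cell markers to 0 to 0.551 against 0.000874 to 3.22, and the fibroblast markers to 0.616 to 2.91 against 0.706 to 4.01. The sum was higher in high-scoring cells in 2 of 5 libraries for fibroblast markers, in 1 each for endothelial and plasma cell markers, and in 0 for the other 4 classes. No listed marker of these classes was at 0 over all high-scoring cells together. Among genes tested, 6 of 6 macrophage markers, 2 of 2 neutrophil markers, 2 of 3 plasma cell markers and 1 of 3 endothelial markers fell. Over all genes the share called lower was 14.2%. None of the 6 fibroblast and 3 mural markers was called, and no T cell marker passed the filter on low counts. At equal depth 1 of 1 tested macrophage, 1 of 1 neutrophil and 1 of 4 fibroblast markers fell. There 0 of 2 plasma cell and 0 of 1 mural markers were called, and no endothelial marker could be tested.

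All other genes were compared between high-scoring and other epithelial cells by summing UMIs per library, with the library as a block. This asks what the cells share beyond the genes that chose them. Of 12559 genes tested with edgeR's quasi-likelihood test, 3776 (30.1%) passed an adjusted p of 0.05, 1991 (15.9%) higher and 1785 (14.2%) lower in high-scoring cells, so a call alone is common. Of the called genes, 3353 had the same direction in all 5 libraries and 604 changed at least 2-fold, 242 higher and 362 lower. At equal depth 1014 of 9148 genes (11.1%) were called, 558 (6.1%) higher and 456 (4.98%) lower. Counts in the gene lists below are to be read against these shares of all genes. Of the 9148 genes tested both ways, 936 were called in both, all in the same direction. Levels in the 5 libraries did not overlap between the groups, with high-scoring cells above, for 352 genes (2.8%) and, with high-scoring cells below, for 438 genes (3.49%).

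Among the 15 named genes that rose were genes of secreted proteins and of ion transport. Car6, the secreted carbonic anhydrase of saliva and milk, was at 19.5, 27.1, 7.97, 12.7 and 11.3 UMIs per 10000 in high-scoring cells and at 1.28, 2.26, 0.996, 0.968 and 1.36 in the others. The groups did not overlap, and the log2 fold change was 3.47 ± 0.12 (SE derived from the edgeR test over 5 libraries, edgeR adjusted p = 4.51e-08). At equal depth 58.0, 57.4, 35.9, 41.9 and 47.7% of high-scoring cells had a Car6 UMI, against 9.89 to 12.1% of the others. Car6 was thus more widespread among high-scoring cells than Scgb1b27 or Pip.

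Slc12a2, the sodium, potassium and chloride cotransporter that loads secretory cells with chloride, was at 3.51, 5.70, 2.73, 9.52 and 8.33 UMIs per 10000 against 1.07, 1.45, 1.06, 2.57 and 2.63. Its groups did not overlap either, since the lowest high-scoring value, in stored 10x, lay above the highest value of the others, in BD 2. The log2 fold change was 1.74 ± 0.08 (edgeR adjusted p = 1.88e-07). Arg1, the urea-cycle enzyme arginase, was at 2.26, 2.01, 1.5, 3.57 and 3.20 against 0.436, 0.520, 0.423, 0.762 and 0.840, a log2 fold change of 2.08 ± 0.07 (edgeR adjusted p = 4.51e-08). The water channel Aqp5 of salivary and lacrimal acini was at 27.3, 28.7, 21.3, 14.3 and 11.9 against 13.9, 13.9, 10.6, 5.59 and 5.21. The Aqp5 groups overlapped across libraries, with both lower on BD Rhapsody, and high-scoring cells were higher within each library (log2 fold change 1.13 ± 0.06, edgeR adjusted p = 4.28e-07).

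The secreted mucin-type gene Prol1 rose by 3.10 ± 0.18 on the log2 scale, from 0.0345 to 0.373 UMIs per 10000 in the others to 0.532 to 3.62. Pigr, the receptor that carries polymeric immunoglobulin across epithelium, rose by 1.70 ± 0.09. Rises between 1.53 and 2.12 were measured for Tspan1 (a tetraspanin), Cldn10 (an ion-selective claudin of tight junctions), Cpe (a prohormone-trimming carboxypeptidase), Atp2a3 (a calcium pump of the endoplasmic reticulum), Ncald (a calcium sensor), Lrrc26 (a potassium channel subunit), Gdpd1, Rgcc and the histone gene Hist1h4h. Hist1h4h shares 45.8% of its 50-base words with other transcripts, and 63.7% of those in its last 300 bases, so its counts are uncertain.

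Mup5, a lipocalin of the major urinary protein family, had the largest log2 fold change among the named genes, 6.58 ± 0.51, but it rested on few cells. Its level was 0.524, 4.59, 0.0520, 0.0933 and 7.57 per 10000, against 0.00479, 0.136, 0.000734, 0.00127 and 0.0159. Between 7 and 21 high-scoring cells per library had a UMI, and in BD 2 a single cell held 93.0% of its UMIs. Mup5 shares 17.1% of its 50-base words with other genes, and 35.5% of those in its last 300 bases, so its counts are uncertain. Of 25 listed secretoglobins besides the score genes, 13 had UMIs and only Scgb2b26 was tested. Scgb2b26, a neighbour of the pair on chromosome 7 (33943002 to 33945040), was at 0.250, 0.627, 0.173, 0.346 and 0.306 per 10000 in high-scoring cells. In the others it was at 0.00122 to 0.00700, and the fitted log2 fold change was 6.74 ± 0.23. It passed the filter on low counts through the high-scoring cells alone, so its direction was fixed in advance and its test lends no support. In the others of fresh 10x 1, stored 10x and BD 1, Mup5 was also too low for that filter. Transcripts of Scgb2b26 share 1.70% of their 50-base words with other genes.

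**Figure D3:**
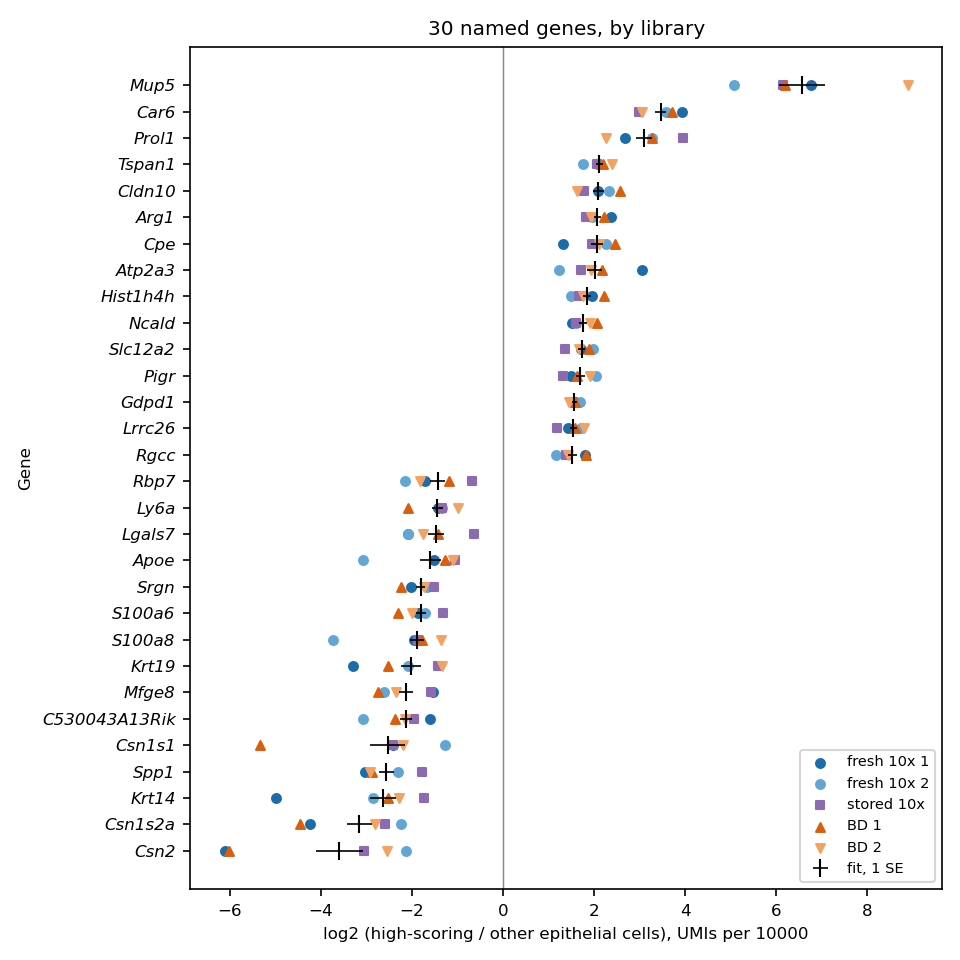
Log2 ratio of the level in high-scoring cells to that in other epithelial cells for the 30 named genes, 1 symbol per library, with the edgeR fit and 1 SE in black. All libraries lie right of 0 for the 15 genes that rose and left of 0 for the 15 that fell, and the naming rule required this shared direction, and the libraries spread most for Mup5, Csn1s1, Krt14 and Csn2.

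Most of the milk protein genes tested were lower in high-scoring cells. Of 17 milk protein genes tested, 12 fell and 1 rose, with a median log2 fold change of -1.36, against -0.0089 over all genes. At equal depth 11 of 15 fell. Csn2 (beta-casein) was at 0.204, 2.91, 1.82, 0.214 and 1.29 UMIs per 10000 against 14.1, 12.8, 15, 13.8 and 7.60, with no overlap (log2 fold change -3.59 ± 0.51, edgeR adjusted p = 0.000347). Its highest values came from few cells: 1 high-scoring cell held 92.9% of the Csn2 UMIs in fresh 10x 2 and 80.5% in BD 2.

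Csn1s2a was at 0.371, 1.39, 1.58, 0.458 and 0.916 against 7.02, 6.58, 9.50, 10.1 and 6.39 (log2 fold change -3.15 ± 0.28, edgeR adjusted p = 1.37e-05), and Csn1s1 had a log2 fold change of -2.53 ± 0.39. Both encode alpha-caseins, and neither showed overlap. Mfge8, a protein of milk fat globules, was at 4.02, 1.26, 5.08, 1.48 and 1.63 against 11.7, 7.66, 15.1, 9.86 and 8.29 (log2 fold change -2.12 ± 0.16). The whey protein gene Wap (-0.98 ± 0.18) and Btn1a1 of the milk fat membrane (-1.36 ± 0.23) were lower too.

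Other milk genes were not called. Csn3 (kappa-casein) was at 112, 161, 181, 173 and 204 UMIs per 10000 in high-scoring cells and at 137, 152, 148, 179 and 174 in the others (log2 fold change 0.07 ± 0.08, edgeR adjusted p = 0.524). Lalba, the alpha-lactalbumin subunit of lactose synthase, was at 11.6, 14.6, 16.2, 52.7 and 58.6 against 11.2, 15.5, 17.2, 71.1 and 65.5 (-0.13 ± 0.05, edgeR adjusted p = 0.0995). Both pass the threshold without fresh 10x 1, at 0.17 and -0.16. The 1 milk gene that rose was Trf (transferrin, 0.24 ± 0.07, edgeR adjusted p = 0.0246), and its call was lost without stored 10x, without BD 1 or without BD 2.

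Spp1 (osteopontin), a secreted phosphoprotein, was at 17.2, 17.8, 27.7, 4.33 and 3.07 UMIs per 10000 against 140, 87.3, 95.2, 31.7 and 23.1 (log2 fold change -2.56 ± 0.16, edgeR adjusted p = 1.04e-06). The groups overlapped across libraries, and both were lower on BD Rhapsody. At equal depth 13.6 to 55.5% of high-scoring cells had a Spp1 UMI, against 47.5 to 73.9% of the others. The remaining falls were in Krt14 (-2.63), C530043A13Rik (-2.13), Krt19 (-2.02), S100a8 (-1.89), S100a6 (-1.81), Srgn (-1.80), Apoe (-1.60), Lgals7 (-1.47), Ly6a (-1.44) and Rbp7 (-1.43). Ly6a and Krt14 share 19.0 and 14.4% of their 50-base words with other genes, and 7.99 and 0% of those in their last 300 bases. Some of the genes that fell are markers of other cells: S100a8 is a neutrophil gene, Srgn a gene of blood cells and Apoe a macrophage gene. S100a8 is itself among the neutrophil markers summed above, so that sum is not separate from it. The part of transcripts from other cells in these falls was not tested. All 30 named genes were also called at equal depth with the same sign.

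An added comparison used fresh 10x cells that are only in the pooled matrix of the authors. These 2518 cells included 1733 epithelial cells, of which 174 were high-scoring by the same rule. The 15 named genes that rose were all higher there and the 15 that fell were all lower, as a single set of cells without replicates. Both fresh 10x samples name this matrix in their descriptions, and both helped to name the genes. The cells are therefore no independent sample, and agreement in direction over all genes was not counted. Car6 was at 15.1 against 1.73 UMIs per 10000. Several differences were smaller than over the 5 libraries. Csn2 was at 4.26 against 7.86 (log2 ratio -0.88), and the log2 ratio was 1.60 for Mup5, 1.29 for Prol1, 0.82 for Cldn10 and -0.23 for Ly6a. Krt14 (-4.18) and Spp1 (-3.28) differed by more.

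Levels were also read in bins of the score (0, up to 0.5, up to 1, up to 2 and over 2), as a description. At equal depth Car6 was at 0.589, 0.640, 0.725, 0.730 and 1.08 UMIs per 10000 in epithelial cells of score 0, and at 23.3, 102, 30.9, 60.4 and 68.6 in cells over 2. Slc12a2 was at 0.757, 1.03, 0.912, 2.08 and 2.21 at score 0 and at 5.43, 8.97, 7.73, 24.3 and 12.5 over 2. Spp1 was at 158, 114, 109, 44.1 and 33.9 and then at 1.96, 4.66, 5.91, 2.14 and 1.67. Csn2 was at 10.3, 11.6, 12.5, 12.2 and 6.82 and then at 0.217, 0.172, 1.82, 0.357 and 0. Its levels over the 5 bins were 10.3, 10.5, 6.82, 0.147 and 0.217 in fresh 10x 1 and 11.6, 10.5, 0.873, 0.333 and 0.172 in fresh 10x 2, so the drop lay at different bins in these samples. Aqp5 was lower over 2 than in the bin before it in stored 10x (24.1 against 29.9) and in BD 1 (13.9 against 15.4). Csn3 was at 133, 153, 139, 181 and 165 and then at 134, 196, 199, 133 and 162, with no shared direction. Cells over 2 numbered 23, 29, 11, 14 and 18, so the last bin is thin in 3 libraries.

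**Figure D4:**
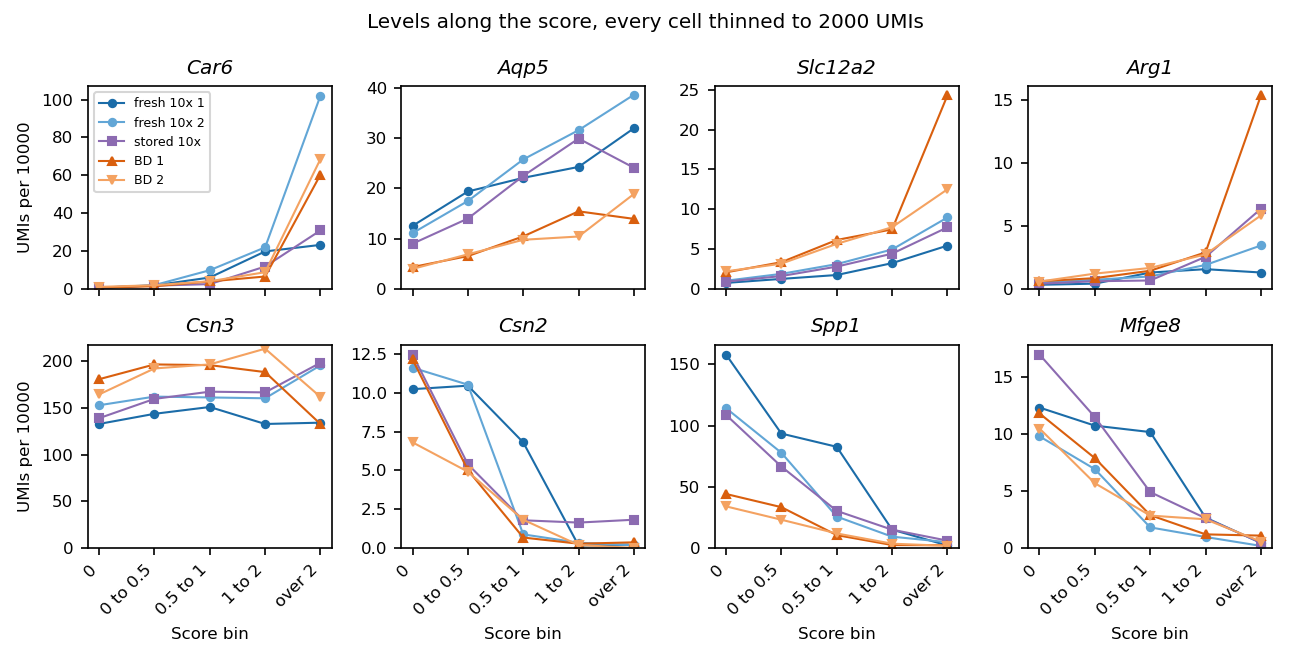
UMIs per 10000 at equal depth for 8 genes in bins of the score, 1 line per library. Car6 and Slc12a2 are higher in cells over 2 than at score 0 in every library, Csn2 and Spp1 are lower, and Csn3 has no shared direction; the last bin holds 11 to 29 cells.

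High-scoring cells with a Pip UMI at equal depth, 8 to 11 per library, were set beside those without one. In them Car6 was at 43.1, 104, 36.1, 51.7 and 71.4 UMIs per 10000, against 18, 33.5, 6.46, 6.87 and 7.84 in high-scoring cells without one. Scgb1b27, which helped to choose the cells, was at 30.6, 50.0, 75.6, 199 and 198 against 2.60, 17.1, 5.10, 8.20 and 2.18. Arg1 was at 5.0, 10.9, 5.0, 14.4 and 9.55 against 1.28, 1.46, 1.56, 2.51 and 2.39. These 3 genes were higher with Pip in all 5 libraries, as a description of few cells. Spp1 was at 35.6, 4.55, 6.67, 0.556 and 0.455 against 14.8, 8.50, 22.5, 7.55 and 6.83, so it was higher with Pip in fresh 10x 1 and lower in the other 4 libraries. Mfge8 was also higher with Pip in fresh 10x 1 alone, at 9.38 against 2.64.

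Among 18 tested salivary and lacrimal genes, 7 rose and 4 fell, with a median log2 fold change of 0.77. At equal depth 6 of 14 rose and 6 fell, with a median of 0.23, so the list did not move one way. Besides those above, Wfdc18, a secreted whey acidic protein domain gene, was at 70.7, 61.7, 150, 101 and 116 UMIs per 10000 against 52.7, 41.0, 85.2, 84.1 and 63.5 (log2 fold change 0.61 ± 0.08), and Agr2, which folds mucins, rose by 1.15 ± 0.25. Wfdc2 (-2.13 ± 0.11) and the membrane mucin Muc15 (-0.70 ± 0.06) were lower. The iron-binding genes Lcn2 (0.03 ± 0.06, edgeR adjusted p = 0.691) and Ltf (-0.51 ± 0.28, edgeR adjusted p = 0.194) were not called.

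Ion transport and calcium exchange genes rose in 9 of 13 cases and fell in 2, with a median of 0.39; at equal depth 5 of 12 rose and 0 fell. Kcnn4, the calcium-gated potassium channel of secretory epithelium, rose by 0.92 ± 0.04 (edgeR adjusted p = 9.54e-08). Car12 (a membrane carbonic anhydrase) rose by 0.72, the sodium pump subunit Atp1b1 by 0.66, and the calcium-gated chloride channel Ano1 by 0.42. Cytoplasmic carbonic anhydrase Car2 was at -0.69. The calls of Atp1b1 and Car2 were lost at equal depth.

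Of 21 tested genes of the endoplasmic reticulum, 7 rose and 3 fell (median 0.07), and at equal depth 5 of 20 rose and 1 fell. Those that rose were the transcription factors Creb3l4 (1.24 ± 0.18), Creb3l1 (0.56 ± 0.08) and Xbp1 (0.52 ± 0.05), the degradation factor Herpud1 (0.78 ± 0.04), the translocation genes Sec61b (0.25) and Ssr4 (0.24) and the co-chaperone Dnajc3 (0.22). The chaperone Hspa5 was at -0.18 ± 0.04 (edgeR adjusted p = 0.00631), a call lost at equal depth and in the 10x libraries alone. Of 10 alveolar regulators 3 rose, Id2 by 0.85, Stat5b by 0.34 and Ehf by 0.29, and Elf5 fell by 0.39. At equal depth 2 of the 10 rose and 2 fell.

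Basal genes were lower in 6 of 9 cases, led by Krt17 (-3.39 ± 0.26) and with the basal regulator Trp63 at -2.19 ± 0.27. The median was -2.10, and at equal depth 4 of 5 fell. The exception Mylk (0.77 ± 0.19, edgeR adjusted p = 0.0112) lost its call at equal depth and without BD 1, at 0.57 and 0.48. Luminal progenitor genes rose in 2 of 9 cases and fell in 5 (median -0.77), with Tspan8 at 0.83 ± 0.06, Slpi at -2.16 ± 0.42 and Aldh1a3 at -1.84 ± 0.32. At equal depth 1 rose and 4 fell. Hormone-sensing genes rose in 1 of 8 cases, the surface protein gene Prom1 (1.03 ± 0.11), and fell in 4 (median -1.34); only 2 of them could be tested at equal depth.

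**Figure D5:**
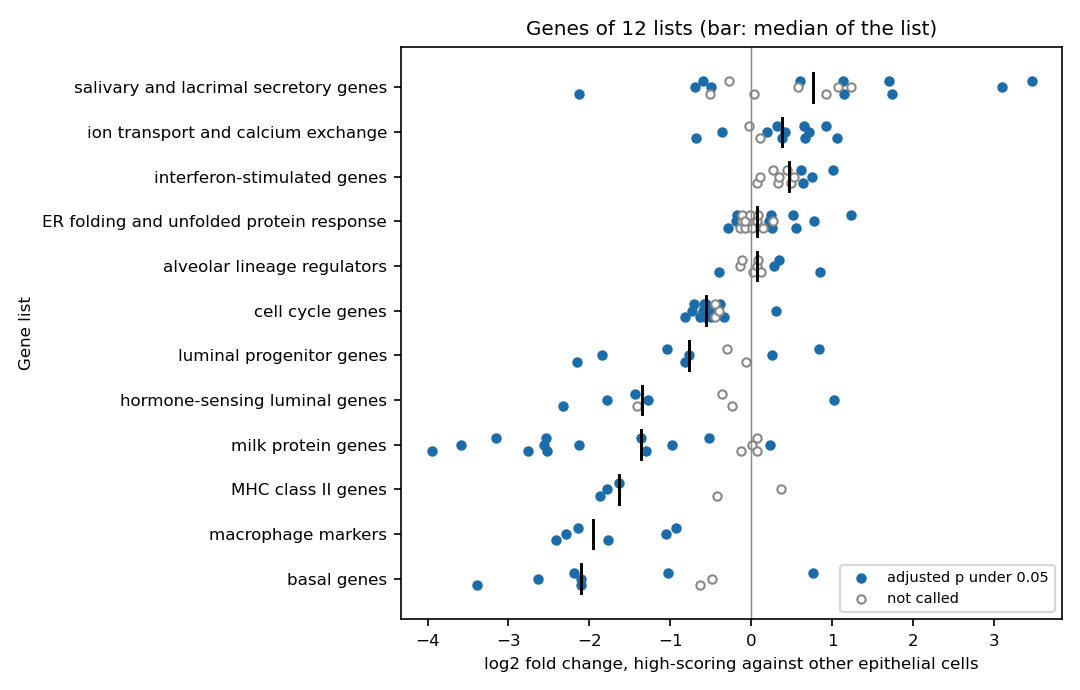
Log2 fold change, high-scoring against other epithelial cells, for each tested gene of 12 lists, with called genes filled and a bar at the median of each list. In the milk protein list 12 of 17 genes fell, and in the ion transport list 9 of 13 rose.

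Among cell cycle genes 13 of 17 fell and 1 rose, the cyclin gene Ccnd1 (0.31 ± 0.05), with a median of -0.56. This count depended on depth and on 1 library: 2 of 16 fell at equal depth, and 6 fell without BD 2. The replication gene Mcm5 was at -0.58 ± 0.09, and its call was lost at equal depth. Interferon-stimulated genes rose in 4 of 12 cases and fell in 0 (median 0.47), with Ifitm3 at 0.76 ± 0.07 and Rtp4 at 0.62 ± 0.11. Of 5 MHC class II genes 3 fell, Cd74 at -1.78 ± 0.22 and H2-Ab1 at -1.87 ± 0.11 among them, beside the lower macrophage marker sums given above. Their part in this result was not tested.

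Between conditions, the level of the score genes was read over all epithelial cells, since the percentile fixes the number of high-scoring cells. The 5 genes together were at 16.5, 18.6, 9.90, 12.7 and 10.1 UMIs per 10000. For 2310057J18Rik the level was 7.26, 5.60, 2.40, 1.59 and 1.83, so both fresh 10x samples lay above the other 3 libraries. For Scgb2b27 it was 7.68, 10.6, 5.22, 8.21 and 6.69, so fresh 10x 1 lay below BD 1. With 1 library each, stored 10x, BD 1 and BD 2 carry no replicate error, so sample, platform and storage cannot be told apart.

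In high-scoring cells, 2056 of 11785 genes (17.4%) passed the edgeR threshold between BD 1 and fresh 10x, 1011 higher (8.58%) and 1045 lower (8.87%) in BD 1, with an error that rests on 1 residual degree of freedom and assumes that the lone BD 1 library varies like the 2 fresh 10x samples. The count was 726 with DESeq2. With cells above the 80th percentile edgeR called 0 genes, with 4580 at an unadjusted p under 0.05, and 19 of 21 gene results given for this comparison lost their call. Within the lists, Lalba was higher in BD 1 with a log2 fold change of 1.90 (edgeR adjusted p = 0.0093), as were Pigr (1.70), Car12 (1.43) and Ano1 (0.87). Aqp5 had a log2 fold change of -1.07 (edgeR adjusted p = 0.017) and Spp1 of -2.12, and the nuclear RNAs Malat1 and Neat1 of -3.36 and -3.17. Car6 (-0.98, edgeR adjusted p = 0.054) and Slc12a2 (0.94, edgeR adjusted p = 0.089) were not called.

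Some of the largest gaps were present in the other epithelial cells too. Rps10, a ribosomal protein gene, was at 39.8, 41.2, 32.7, 0.978 and 0.746 UMIs per 10000 in high-scoring cells and at 42.6, 42.3, 33.6, 1.07 and 0.753 in the others. Rps10 shares 25.4% of its 50-base words with other genes, and 52.6% of those in its last 300 bases, so its counts are uncertain. Sag, Sept2, Snhg9 and the metallothionein Mt2 were also higher in BD 1 (log2 fold changes of 4.77, 4.36, 4.16 and 4.00). AC160336.1, Csn1s1 and the lactoferrin gene Ltf were lower (-6.37, -4.27 and -3.68). For Csn1s1 and Ltf the gap differed between the cell groups, by -3.47 and -2.48 (edgeR adjusted p under the threshold), and both of these calls were lost at equal depth.

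Between stored and fresh 10x high-scoring cells edgeR called 0 of 11785 genes (0%), while 890 had an unadjusted p under 0.05 and DESeq2 called 26. The smallest edgeR adjusted p was 0.178. Whether a condition acted differently on high-scoring and other epithelial cells was tested as a difference of differences. For BD 1 against fresh 10x this gave 3 of 14237 genes (0.0211%), 1 higher (0.00702%) and 2 lower (0.014%). For stored against fresh 10x it gave 9 genes (0.0632%), 4 higher (0.0281%) and 5 lower (0.0351%). The called genes are given with the results for a closer look, and several rested on 1 cell. In simulated data with BD 1 changed, the test within high-scoring cells recovered 33 of 67 genes changed 2-fold. The difference of differences recovered 8 of 67. Few or 0 calls in these comparisons therefore do not show that genes were unchanged.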

How the data were processed

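The authors deposited raw UMI counts per gene and cell, with cells already selected. The submitters' processing notes name Cell Ranger 3.0.1 and mm10 for all samples; what made the BD Rhapsody matrices is not given in the sources used here. Of 42562 gene names, spellings of 1 symbol were merged, leaving 41028. Columns of other samples numbered 0. The cells, gene lists and tests were chosen with earlier results of these data known. Counts were summed per library over high-scoring and over other epithelial cells and tested with edgeR 4.0.16 (TMM, filterByExpr, quasi-likelihood test, Benjamini-Hochberg adjustment over all genes tested) in R 4.3.3, with the library as a block because both sums of a library come from the same cells' digest. The 8 rule genes stayed in the library size and were not tested. Each SE is the absolute log2 fold change divided by the square root of the F value of the test. It rests on a dispersion moderated across genes and is not the spread between libraries. Comparisons between conditions used the sums of high-scoring cells. Named genes were the 15 with the largest called change in each direction, with the same direction in all 5 libraries and at least 0.5 UMIs per 10000 on the higher side; between conditions, the 5 largest in each direction with UMIs on both platforms. List genes could be named beside the count of their list. Some genes that this rule names are not reported here. Alternatives were DESeq2 1.42.0, other size factors, no filter, equal depth (2000 UMIs per cell), cells of at most 20% mitochondrial UMIs, other percentiles and left-out libraries. Tests were checked on simulated data. The doublet caller scrublet (scanpy 1.11.5) marked 35 of 15958 cells, at an expected rate set to 0.06. Whether it missed doublets was not tested, so doublets may remain. Exact binomial intervals cover counting error only. Positions and sequences are from GENCODE and RefSeq annotation of GRCm38. Drop-seq, named in the design text, was not analysed here.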

Additional observations from a re-analysis of the deposited data

Results flagged for a closer look

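Difference of differences, BD 1 against fresh 10x (high-scoring minus other epithelial cells, log2, edgeR adjusted p under 0.05): Csn1s1 was at -3.47, Ltf at -2.48 and Rgs5 at 7.16. Ltf was at 16.2 and 6.86 UMIs per 10000 in fresh 10x and at 0.965 in BD 1 high-scoring cells, against 14.8, 7.18 and 5.41 in the others. Csn1s1 was at 2.18, 6.98 and 0.257, against 11.6, 16.9 and 10.4. Rgs5, chosen after its values were seen because it lies under the level set for naming, rested on 36 UMIs in BD 1, of which 97.2% came from 1 cell.

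For stored against fresh 10x, the genes whose difference differed between the cell groups were Cartpt (2.39), Krt5 (4.54), Lgals7 (1.51), Saa2 (1.41), Dcn (-2.37), Dcpp1 (-4.56) and the genes Dcpp2, Dcpp3 and Mup4, with fitted values of -7.90, -12.24 and -8.76. Dcn, Dcpp3 and Krt5 lie under the level set for naming and were chosen after their values were seen. Dcpp3 had 191 and 26 UMIs in fresh 10x high-scoring cells, in 5 and 3 cells, and 0 in stored 10x, so its fitted value is no measure of size. Dcpp2 had 834, 86 and 3 UMIs and Mup4 33, 494 and 12 UMIs, with at most 11 cells each. Dcpp1, Dcpp2 and Dcpp3 share between 44.2 and 46.5% of their 50-base words with other genes, so counts may be split among them. In stored 10x, 1 cell held 86.8% of 53 Krt5 UMIs and 54.2% of the Cartpt UMIs. Lgals7 was at 0.310, 0.279 and 0.960 UMIs per 10000 in high-scoring cells against 1.32, 1.18 and 1.48 in the others.

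Cells outside the epithelial gate were in no test, and only the gated macrophages, T cells and fibroblasts among them were set beside epithelial cells, for Scgb2b27. Above the score percentile of their library were 1, 1, 13, 27 and 45 such cells (0.147, 0.202, 1.26, 2.17 and 2.90%). Their median gate level was 11.2, 11.1 and 11.4 UMIs per 10000 in stored 10x, BD 1 and BD 2, under the gate of 15. Scgb1b27 in them was at 26.5, 175 and 42.3 UMIs per 10000 in these 3 libraries, against 12.7, 20.5 and 5.19 in high-scoring cells. They held 89.4, 98.5 and 99.3% of the Scgb1b27 UMIs outside the gate. Their median mitochondrial share was 10.7, 20.5 and 28.6%, and the fibroblast markers in them summed to 56.4, 23.2 and 1.51 UMIs per 10000. Csn2 in them was at 1.09, 0.210 and 21.0. The part of these values in the pattern was not tested.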

How the results depend on the processing

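Against 3776 genes called between high-scoring and other epithelial cells, the count was 1014 at equal depth, 1738 in the 10x libraries alone, and 2781 to 3586 with 1 library left out. Without the replicate block, which ignores that both sums come from 1 library, it was 406, and 43 of 78 gene results of the text lost their call. The other alternatives gave 3026 to 4707 genes, and 3717 without the 5 highest-scoring cells of each library, chosen after seeing the data; without a filter on low counts 4122 were called, 1521 higher and 2601 lower. No gene result of the text in this comparison reversed. For BD 1 against fresh 10x (2056) the count was 726 with DESeq2, 0 above the 80th percentile (4580 at an unadjusted p under 0.05), 990 at equal depth, 4640 with BD 2 grouped by its title, and 4801 to 5112 with a fresh 10x sample also left out, which leaves a lone sample assumed to vary like the others. For stored against fresh 10x (0) these counts were 26 with DESeq2, 4 above the 95th percentile, 59 at equal depth, 50 with BD 2 grouped by title, and 611 to 723. The difference of differences called, for BD 1, 69 without a filter, 10 at equal depth and 11 with BD 2 grouped by title; for stored 10x, 4 with DESeq2, 84 without a filter, 16 at equal depth and 16 with BD 2 grouped by title. At equal depth Cartpt (-0.99) and Saa2 (-0.36) reversed. The cause of these changes was not tested. No paired analysis was made between conditions, because the sample titles state no pairing and only fresh 10x has 2 libraries. The level of the 5 score genes in BD 1 was 10.9 with at most 20% mitochondrial UMIs, and 18.6 in pooled fresh cells against 16.5 in fresh 10x 1. Chosen on the other 4 genes at equal depth, Scgb1b27 was at 7.04 and 2310057J18Rik at 3.55. A gene seen in few cells, such as Pip or Mup5, is limited by the number of cells and not by UMIs.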

Other observations

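Further lists described the high-scoring cells against the other epithelial cells, beside 15.9% of all genes called higher and 14.2% called lower. Genes induced by tissue dissociation fell in 6 of 10 cases and rose in 0, at equal depth too, with a median log2 fold change of -0.28. The immediate early transcription factor Fosb was at 3.51, 8.31, 4.65, 4.23 and 4.44 UMIs per 10000 against 9.44, 13.6, 8.92, 12.4 and 10.9, and its groups did not overlap (-1.17 ± 0.11), while Egr1 was at -0.66 ± 0.06. Genes of other tumour epithelial states rose in 3 of 12 cases and fell in 5, with Arg1 the largest rise and the peptide hormone gene Cck (-1.92 ± 0.14) and serum amyloid Saa1 (-1.08 ± 0.17) among the falls.

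Hypoxia and glycolysis genes rose in 4 of 12 cases and fell in 2, with the glycolytic enzyme Aldoa at 0.66 ± 0.07 and the stress gene Ndrg1 at -1.26 ± 0.13. Steroid receptors and responsive genes rose in 2 of 9 cases and fell in 2, with the vitamin D receptor Vdr at -0.62 ± 0.10; at equal depth 0 rose and 1 fell. Fatty acid and cholesterol genes rose in 2 of 13 cases and fell in 2, and luminal and junction genes rose in 1 of 8 and fell in 4. With so few genes in the steroid, fatty acid and hypoxia lists, nothing is read from their counts beside the shares over all genes. Mitochondrial genes rose in 7 of 13 cases, with a median of 0.12, and in 0 at equal depth. None of 5 nuclear noncoding RNAs and 2 haemoglobin genes was called.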
